A study of Mus musculus with 9 samples.

Results

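Periosteal skeletal stem cells (P-SSCs) taken from a bone graft were compared with mesenchymal stem cells of the bone marrow (BM-MSCs), to ask which genes of the marrow cells the activated periosteal cells approached and which stayed far apart. All animals were wild-type C57BL/6J mice, of an age the labels do not give. BM-MSCs came from the marrow of steady-state mice at day 0, steady-state P-SSCs from the periosteum at day 0, and graft P-SSCs from the periosteum of an adult donor femur 3 days after it was implanted under the skin of a wild-type recipient. Each group had 3 libraries, so 6 of the 9 libraries of the series were compared here, and the 3 steady-state P-SSC libraries served as the starting point of the graft cells. All cells were sorted as CD45-Ter119-CD31-CD51+CD200+, some replicates pooled RNA from more than 1 mouse, and different replicates held different mice. The sort does not separate donor from host cells in the graft. Tissue, transplantation and day all differed between graft P-SSCs and BM-MSCs and cannot be told apart in that comparison alone. A gene was a member when it had at least 1 FPKM in at least 3 of the 6 libraries, where FPKM are the fragments of a gene scaled to its length and to the library total. This held for 1823 of the 8329 genes in the table, and 3454 genes were above 0 in at least 1 of the 6 libraries.

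BM-MSCs are stromal cells that surround blood vessels in the marrow and make the chemokines, cytokines and other factors on which haematopoietic stem cells depend. The periosteum is the fibrous sheet on the outer face of bone, and its stem cells divide and form cartilage and bone after a fracture. An implanted bone first loses its blood supply and most of its marrow cells before new vessels grow in.

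Library totals, read from the size of 1 fragment in the table, were 16890241 to 18820888 fragments in BM-MSCs, 17759541 to 19756156 in steady-state P-SSCs and 17685244 to 21315438 in graft P-SSCs. Across the genes tested, which are not independent replicates, Pearson's r of log2(FPKM + 1) was 0.981 to 0.992 between graft libraries, 0.946 to 0.955 between BM-MSC libraries and 0.704 to 0.740 between a graft and a BM-MSC library. Between steady-state P-SSC and BM-MSC libraries it was 0.794 to 0.832 for P-SSC replicates 1 and 2, above every graft library, and 0.709 to 0.742 for replicate 3. The steady-state P-SSC libraries ranged from 0.860 to 0.963 among themselves, with replicate 3 apart from the other two. The main counts that need these libraries are therefore given with and without P-SSC replicate 3, while list counts at steady state are given with all 3 libraries. The genes for CD51 and CD200 were not analysed here. Of 24 endothelial markers 1 was in the table and none reached the filter, and no osteoclast marker was in it. The 4 red cell markers in the table, 3 of them tested, summed to between 633 and 2244 FPKM in BM-MSCs, 2.13 to 20.8 in steady-state P-SSCs and 1.65 to 4.36 in graft P-SSCs. For the 8 granulocyte and monocyte markers in the table the sums were 484 to 629, 14.5 to 74.2 and 36 to 97.8 FPKM. The BM-MSC sums differed in content, with *Mpo* at 292, 0 and 0 and *Lyz2* at 143, 540 and 608 FPKM in replicates 1 to 3. In bulk RNA, fewer cells of a type and less RNA per cell cannot be told apart.

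Between graft P-SSCs and BM-MSCs, 814 of the 1823 genes were called by limma at a Benjamini-Hochberg adjusted p under 0.05, which is 44.7% of the genes tested. The graft cells were higher in 506 genes (27.8%) and lower in 308 (16.9%). Over the genes tested the log2 fold change had a median of 0.29, so most changes given here stand against a baseline a little above 0. Median-of-ratios scaling moved that median to 0.082 and gave 384 higher and 361 lower genes, and quantile normalization moved it to -0.025 and gave 398 higher and 421 lower genes. The libraries of both groups did not overlap for 66.3% of the genes, against 32.0% for the steady-state periosteal against the marrow libraries and 51.2% between the periosteal groups. For steady-state P-SSCs against BM-MSCs, 156 genes (8.56%) were called higher and 283 (15.5%) lower, and for graft against steady-state P-SSCs 440 (24.1%) higher and 186 (10.2%) lower. Without P-SSC replicate 3 these counts were 172 and 380, and 637 and 218. These 3 comparisons share libraries, and each is given side by side with the others. Fold changes are on the log2(FPKM + 1) scale, which understates the change of genes with low values. A gene under 1 FPKM in every library of one group passed the filter only through the other group, which fixed its direction. Such genes stay in the counts, but those named are given by their values with no p-value, and any fold change beside them depends on the pseudocount of 1.

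**Figure D1:**
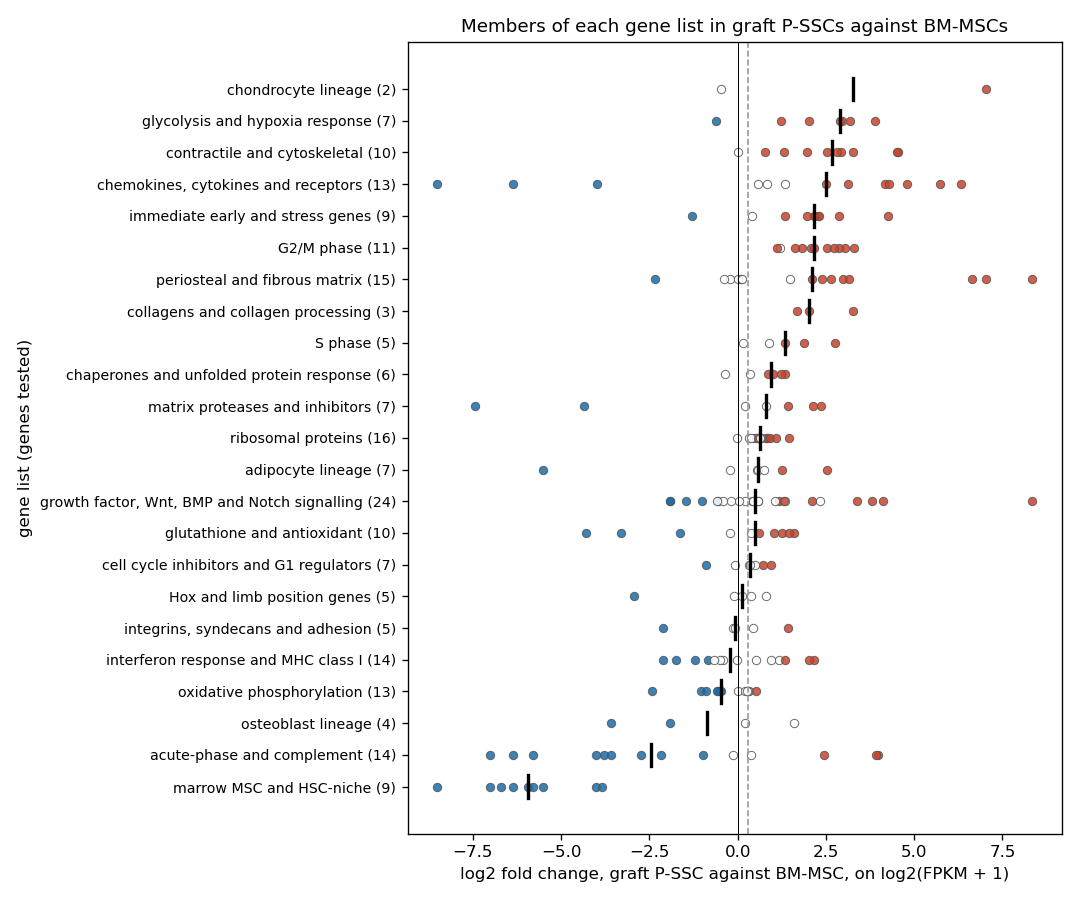
Log2 fold change of graft P-SSCs against BM-MSCs (horizontal axis, on log2(FPKM + 1)) for the tested members of 23 gene lists, with the number of genes tested in brackets. Each point is 1 gene, filled red where limma called it higher, filled blue where called lower and open where not called. The short bars are list medians, the dashed line is the median of all 1823 genes at 0.29, and all 9 marrow MSC genes lie at the left.

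All 9 tested genes of the marrow MSC and niche list were called lower in graft P-SSCs, beside 16.9% of all genes called lower, with a median log2 fold change of -5.95 against 0.29 for all genes. At steady state 8 of the 9 were already lower in P-SSCs, beside 15.5% of all genes, with a median of -5.20. All 9 were below 0 under each scaling tried. Values of *Cxcl12* and *Kitl*, niche factors measured in the paper, are not reported here. The list was drawn up for genes high in marrow stroma, with earlier results known, and holds the markers *Ackr4* and *Trf*, so its count describes these genes and is no independent evidence of their direction.

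*Ackr4*, a scavenger receptor for the chemokines CCL19, CCL21 and CCL25, lies on chromosome 9 from 104084157 to 104126933, on the minus strand, in GRCm38. It had 515, 433 and 396 FPKM in BM-MSCs, 12.1, 24.5 and 15 in steady-state P-SSCs and 0.555, 0.105 and 0.0745 in graft P-SSCs, so no libraries of any pair of groups overlapped. Against BM-MSCs its log2 fold change was -4.68 before transplantation and -8.51 after it, so the graft cells were the further from the marrow. *Trf*, which encodes the iron carrier transferrin, on chromosome 9 from 103204001 to 103230444, on the minus strand, had 195, 161 and 135 FPKM in BM-MSCs, 3.86, 4.45 and 2.3 in steady-state P-SSCs and 2.52, 1.18 and 2.17 in graft P-SSCs. Both periosteal groups stood far below the marrow (log2 fold change -5.81, SE 0.30, limma adjusted p = 7.33e-07 for the graft). The graft libraries overlapped the steady-state ones through P-SSC replicate 3 alone, and without that library *Trf* was called lower in the graft than at steady state (log2 fold change -0.83, limma adjusted p = 0.0335).

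*Tmem176a*, a membrane protein of immune and stromal cells, had 2739, 2698 and 2391 FPKM in BM-MSCs, 53, 35.7 and 36.8 in steady-state P-SSCs and 38.8, 40.3 and 44.5 in graft P-SSCs. The periosteal groups overlapped, and the graft change against BM-MSCs was -5.95 (limma adjusted p = 1.51e-08). *Slc26a7*, an anion transporter, had 149.9, 63.5 and 118 FPKM in BM-MSCs, was listed at 0 in 2 of 3 steady-state P-SSC libraries and in all 3 graft libraries, and is given no fold for that reason. *Lpl*, the lipase that releases fatty acids from lipoproteins, had 939, 589.7 and 705 FPKM in BM-MSCs, 164, 110.2 and 95.8 in steady-state P-SSCs and 13.4, 16.9 and 15 in graft P-SSCs. *Serping1*, the inhibitor of complement C1, had 7633, 9554 and 6603 FPKM in BM-MSCs, 4863, 5567 and 3874 in steady-state P-SSCs and 495, 480.1 and 482 in graft P-SSCs. Both were nearer to BM-MSCs at steady state than after transplantation, and the graft groups did not overlap any other group. *Gas6*, a ligand of TAM receptors, had 441, 286 and 284 FPKM in BM-MSCs, 10.8, 9.13 and 432 in steady-state P-SSCs and 22.3, 20.8 and 23.7 in graft P-SSCs, so P-SSC replicate 3 alone was at the marrow level. Its graft change of -3.83 was not called in 7 of the 18 other settings (limma adjusted p up to 0.0748), among them fits without BM-MSC replicate 1, BM-MSC replicate 2, BM-MSC replicate 3, graft P-SSC replicate 1, graft P-SSC replicate 2 and graft P-SSC replicate 3. Without P-SSC replicate 3 its steady-state difference of -4.92 was called (limma adjusted p = 1.9e-07).

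**Figure D2:**
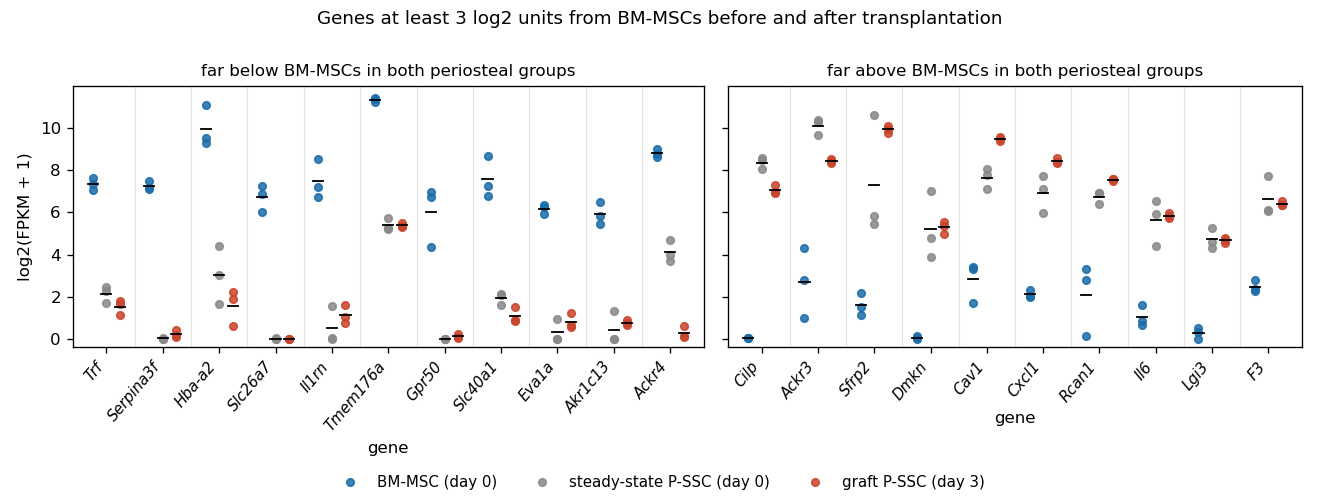
Log2(FPKM + 1) in each library (points) with group means (bars) for the genes at least 3 log2 units from BM-MSCs in both periosteal groups. On the left are *Trf* and the other 10 leading genes below BM-MSCs, on the right the 10 leading genes above them, and no BM-MSC point overlaps a graft point.

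Over the whole table, 35 genes were called at least 3 log2 units below BM-MSCs in both periosteal groups, with at least 10 FPKM in BM-MSCs. They were chosen on these values and are described without a test of the set. Without P-SSC replicate 3 the set held 37 genes, of which 34 were shared. *Serpine2*, a protease inhibitor that acts on thrombin and plasminogen activators, was among the most abundant marrow transcripts. It had 7448, 5799 and 5126 FPKM in BM-MSCs, 359.7, 308 and 346 in steady-state P-SSCs and 37.7, 31.4 and 32.8 in graft P-SSCs, a stepwise order with no overlap (log2 fold change -7.44, SE 0.16, limma adjusted p = 3.39e-09). *Serpina3f*, a serpin with near-identical neighbours among which fragments may be split, had 141, 138 and 181 FPKM in BM-MSCs, 0, 0 and 0.0486 in steady-state P-SSCs and 0.34, 0.065 and 0.129 in graft P-SSCs. *Mme*, the surface peptidase CD10, had 98.3, 52.2 and 55.2 FPKM in BM-MSCs, 4.14, 1.16 and 1.51 in steady-state P-SSCs and 0.823, 0.613 and 0.312 in graft P-SSCs. The periosteal libraries of *Mme* stood below every marrow library.

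Part of this set is known from blood cells and macrophages. *Slc40a1*, the iron exporter ferroportin, had 413, 152 and 108 FPKM in BM-MSCs, 3.25, 2.09 and 3.34 in steady-state P-SSCs and 1.83, 0.839 and 0.811 in graft P-SSCs. *Il1rn*, the antagonist of the interleukin 1 receptor, had 144, 106 and 368 FPKM in BM-MSCs, 0.0349, 1.94 and 0 in steady-state P-SSCs and 0.663, 2.04 and 1.04 in graft P-SSCs, with BM-MSC replicate 3 the highest. *Hvcn1*, a proton channel of leukocytes, had 155, 205 and 147 FPKM in BM-MSCs, 8.04, 7.8 and 3.08 in steady-state P-SSCs and 0.699, 1.19 and 1.56 in graft P-SSCs. *Hba-a2*, an alpha globin whose fragments may be shared with the near-identical *Hba-a1*, had 748, 618 and 2200.5 FPKM in BM-MSCs, 2.13, 7.09 and 20.2 in steady-state P-SSCs and 3.67, 2.78 and 0.531 in graft P-SSCs, again highest in BM-MSC replicate 3. *Cybb*, *Nfe2* and *Kel*, genes of phagocytes, megakaryocytes and red cells, ranged over 31.7, 25.8 and 79.9, 10.3, 16.2 and 31.8 and 4.26, 11 and 33.5 FPKM in BM-MSC replicates 1 to 3, and no graft library exceeded 1.35, 0.24 and 0 FPKM. All 3 tested red cell markers and 3 of 6 granulocyte and monocyte markers were called lower in graft P-SSCs, beside 16.9% of all genes. The part of blood cell RNA in these differences was not tested. *Csf1r*, the receptor for CSF1, went the other way with 2.68, 0.223 and 0 FPKM in BM-MSCs and 6.31, 5.93 and 5.57 in graft P-SSCs (log2 fold change 2.07, SE 0.44, limma adjusted p = 0.00494).

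By the same rule in the other direction, with at least 10 FPKM in the higher group, 14 genes were far above BM-MSCs, and 15 without P-SSC replicate 3, all 14 among them. With a pseudocount of 0.1 they numbered 37. *Cilp*, a matrix protein of cartilage and fibrous tissue, lies on chromosome 9 from 65265180 to 65280605, on the plus strand, and had 0.0286, 0.0257 and 0.0397 FPKM in BM-MSCs, 352, 263 and 381 in steady-state P-SSCs and 122, 125 and 157 in graft P-SSCs. The graft cells lost part of the steady-state level (-1.29 on the log2 scale, limma adjusted p = 0.00095) and still stood above every marrow library. *Ackr3*, the scavenging receptor of CXCL12, on chromosome 1 from 90203980 to 90216751, on the plus strand, had 18.6, 6.01 and 0.98 FPKM in BM-MSCs, 1317, 1244 and 812 in steady-state P-SSCs and 344, 319.8 and 366 in graft P-SSCs, with the marrow libraries themselves spread widely. Its graft libraries were below the steady-state ones and above the marrow ones (log2 fold change 5.73, SE 0.65, limma adjusted p = 0.000102), and its fall from steady state was not called with all libraries (-1.68, limma adjusted p = 0.0726) and was without P-SSC replicate 3 (-1.90, limma adjusted p = 0.0465). *Ackr3* and *Ackr4*, receptors of the same family, thus stood on opposite sides of BM-MSCs in both periosteal groups.

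*Cav1*, the coat protein of caveolae, on chromosome 6 from 17306335 to 17341452, on the plus strand, moved further from the marrow with 9.79, 8.9 and 2.31 FPKM in BM-MSCs, 220.1, 135 and 262 in steady-state P-SSCs and 659, 753 and 703 in graft P-SSCs. The order marrow, steady-state periosteum, graft held without overlap (log2 fold change 6.64, SE 0.42, limma adjusted p = 3.15e-06). *Postn*, the periosteal matrix protein periostin, on chromosome 3 from 54361109 to 54391037, on the plus strand, had the same order with 125, 100.5 and 90.6 FPKM in BM-MSCs, 451, 476 and 391 in steady-state P-SSCs and 782, 829 and 879 in graft P-SSCs (log2 fold change 2.98, SE 0.15, limma adjusted p = 7.33e-07), but lay under 3 log2 units from BM-MSCs. *Sfrp2*, a secreted antagonist of Wnt ligands, had 1.84, 1.17 and 3.53 FPKM in BM-MSCs, 42.7, 55.1 and 1551 in steady-state P-SSCs and 994, 1097 and 880.3 in graft P-SSCs, so that P-SSC replicate 3 was above every graft library and the other two far below them. Its graft excess over BM-MSCs was 8.35 (SE 1.1, limma adjusted p = 0.00027). *Rcan1*, an inhibitor of calcineurin, had 5.97, 0.098 and 8.97 FPKM in BM-MSCs, 119, 84.1 and 119 in steady-state P-SSCs and 178, 193 and 188 in graft P-SSCs. *Dmkn*, a secreted protein of epithelia, had 0.11, 0.033 and 0 FPKM in BM-MSCs, 26.3, 127 and 13.7 in steady-state P-SSCs and 46.3, 39.4 and 30.4 in graft P-SSCs. *Thbs3*, a thrombospondin of the matrix, had 32, 17 and 14 FPKM in BM-MSCs, 337, 416 and 324 in steady-state P-SSCs and 184, 185 and 184 in graft P-SSCs. For these 3 genes every periosteal library was above every marrow library.

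Of the 15 tested genes of the periosteal and fibrous matrix list, 8 were called higher and 1 lower in graft P-SSCs against BM-MSCs, beside 27.8% and 16.9% of all genes, with a median log2 fold change of 2.11. At steady state 12 were higher and 2 lower, beside 8.56% and 15.5%, with a median of 4.11. Against steady-state P-SSCs the graft cells had 9 of the 15 lower and 4 higher, beside 10.2% and 24.1%. *Tnxb*, a tenascin of loose connective tissue, had 0, 0.00492 and 0 FPKM in BM-MSCs, 48.2, 44.6 and 49.4 in steady-state P-SSCs and 4.11, 3.7 and 4.84 in graft P-SSCs. *Gpnmb*, a membrane glycoprotein, had 0.066, 0 and 0 FPKM in BM-MSCs, 93.6, 57.3 and 177 in steady-state P-SSCs and 2.71, 4.58 and 11.4 in graft P-SSCs. In both, the graft libraries lay between the marrow and the steady-state ones, with no overlap. *Dkk2*, another Wnt antagonist, was listed at 0 in all marrow libraries, had 31.1, 14.1 and 12.2 FPKM at steady state and 3.85, 2.55 and 3.7 in the graft. *Mustn1*, a muscle and skeletal gene, had 6.71, 15 and 0.0443 FPKM in BM-MSCs, 307, 372 and 210.4 in steady-state P-SSCs and 14.9, 11 and 13.4 in graft P-SSCs, and its graft difference from BM-MSCs was not called (log2 fold change 1.47, SE 0.80, limma adjusted p = 0.16). That difference rested on single marrow libraries, with 2.30 and a call without BM-MSC replicate 2 (limma adjusted p = 0.0385) and 0.34 without BM-MSC replicate 3 (limma adjusted p = 0.461). The 4 skeletal muscle markers in the table, none of them tested, summed to 0.0553 to 3.48 FPKM in BM-MSCs, 2.34 to 6.51 in steady-state P-SSCs and 0.00249 to 0.506 in graft P-SSCs, and their part in the *Mustn1* values was not tested. *Tnc*, tenascin C of healing tissue, was the gene called lower, and it approached the marrow from below with 1258, 956 and 946 FPKM in BM-MSCs, 36.6, 55.4 and 21.7 in steady-state P-SSCs and 194, 184 and 245 in graft P-SSCs. It rose by 2.51 from steady state and remained 2.33 below BM-MSCs on the log2 scale (limma adjusted p = 0.000203).

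A gene was said to have risen to the BM-MSC level when limma called it lower at steady state than in the marrow and higher after transplantation than before it, and when its graft mean was within 1 log2 unit of the BM-MSC mean. This held for 40 genes with at least 10 FPKM in BM-MSCs. Leaving out P-SSC replicate 3, it held for 62 genes, 37 of them shared. In 14 of the 40 the graft and marrow libraries did not overlap, beside 66.3% of all genes, and the rule itself used these values. The genes of this set and its mirror are therefore given without a test.

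*Sdc1*, a cell surface heparan sulphate proteoglycan that binds growth factors, on chromosome 12 from 8771323 to 8793715, on the plus strand, led the set with 335, 175 and 224 FPKM in BM-MSCs, 3.85, 4.32 and 35 in steady-state P-SSCs and 225, 206 and 211 in graft P-SSCs. The graft libraries lay inside the marrow range, and the change from steady state was 4.46 on the log2 scale. *Fmnl3*, a formin that shapes the actin cortex, had 21.6, 13.2 and 20.3 FPKM in BM-MSCs, 0.552, 0.891 and 4.7 in steady-state P-SSCs and 31, 19.1 and 28.3 in graft P-SSCs. Its steady-state values were below every marrow library, and its graft libraries overlapped the marrow. *Soat1*, which esterifies cholesterol, had 103, 41.3 and 78.1 FPKM in BM-MSCs, 6.42, 4.07 and 5.76 in steady-state P-SSCs and 46.8, 49.5 and 52.8 in graft P-SSCs. *Pdia5*, a disulphide isomerase of the endoplasmic reticulum, had 154, 126 and 108 FPKM in BM-MSCs, 23.6, 29.2 and 27 in steady-state P-SSCs and 173, 151 and 166 in graft P-SSCs. *Wisp1*, a matricellular protein downstream of Wnt, had 27.9, 35.5 and 75.2 FPKM in BM-MSCs, 11.5, 15.6 and 9.57 in steady-state P-SSCs and 65.8, 46.3 and 60.6 in graft P-SSCs. In these 3 genes the graft and marrow libraries overlapped and the steady-state libraries stood below both.

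*Stmn1*, which destabilises microtubules in dividing cells, had 58.4, 61.3 and 122 FPKM in BM-MSCs, 9.44, 13.2 and 12.6 in steady-state P-SSCs and 126, 140.02 and 125 in graft P-SSCs, so the graft libraries were just above the highest marrow one. The call of that excess was lost in 13 of the 18 other settings, among them every fit without 1 library except those without BM-MSC replicate 3 or P-SSC replicate 3. *Nectin2*, an adhesion receptor, stayed just below the marrow with 30.3, 60.1 and 37 FPKM in BM-MSCs, 4.57, 4.28 and 3.04 in steady-state P-SSCs and 21.8, 21.5 and 22.1 in graft P-SSCs. *Poldip2* and *Hacd2*, a mitochondrial protein and an enzyme of fatty acid elongation, had graft values of 140.4, 142 and 136 and 24.5, 24.5 and 27.1 FPKM against 126, 102 and 89.6 and 31.5, 20.2 and 23.3 in BM-MSCs. In both, P-SSC replicate 3 (17.4, 16.8 and 79.1 and 4.41, 3.91 and 12.6 FPKM in steady-state replicates 1 to 3) was the nearest of its group to the marrow. Of the 9 marrow MSC and niche genes none was in the set.

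**Figure D3:**
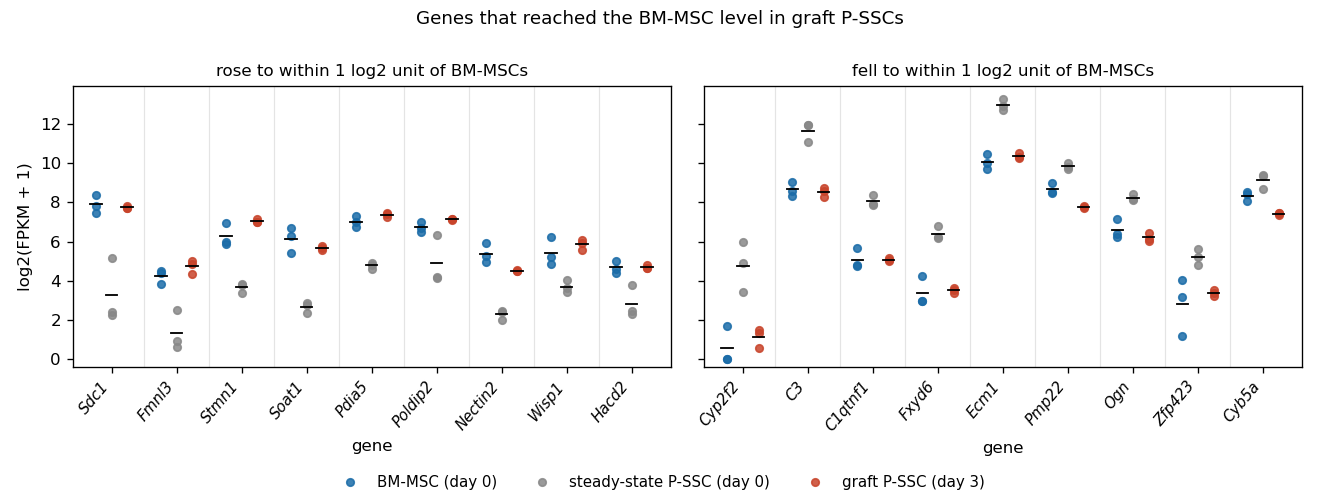
Log2(FPKM + 1) in each library (points) with group means (bars) for 9 leading genes that rose and 9 that fell to within 1 log2 unit of BM-MSCs in graft P-SSCs. Blue and red points lie close together and the grey steady-state points below them on the left and above them on the right.

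The mirror set, genes above the marrow at steady state that fell to its level in the graft, held 27 genes with at least 10 FPKM in steady-state P-SSCs. It held 40 without P-SSC replicate 3, of which 25 were shared, and 14 without P-SSC replicate 1. In 13 of the 27 the graft and marrow libraries did not overlap, beside 66.3% of all genes. *C3*, the central component of complement, had 323, 523 and 383 FPKM in BM-MSCs, 3907, 3905 and 2168 in steady-state P-SSCs and 374, 425 and 302 in graft P-SSCs, and its graft libraries overlapped the marrow after a change of -3.14 from steady state. *Ecm1*, a secreted matrix protein, had 1031, 1429.5 and 831 FPKM in BM-MSCs, 7623, 9787 and 6580.2 in steady-state P-SSCs and 1237, 1461 and 1287 in graft P-SSCs. *Serpinf1*, the antiangiogenic factor PEDF, had 1485, 2011 and 1524 FPKM in BM-MSCs, 5963, 6461 and 4514 in steady-state P-SSCs and 1857, 1930.2 and 1938 in graft P-SSCs. *C1qtnf1*, a secreted relative of complement C1q, had 26.2, 49.5 and 27.1 FPKM in BM-MSCs, 331, 231 and 242 in steady-state P-SSCs and 35.1, 32.8 and 30.7 in graft P-SSCs. In these 3 genes the steady-state libraries were above every marrow library, and the graft libraries overlapped the marrow.

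*Ogn*, the proteoglycan osteoglycin, had 142, 83.8 and 73 FPKM in BM-MSCs, 347, 277 and 282 in steady-state P-SSCs and 69.9, 86.6 and 63.6 in graft P-SSCs. *Fxyd6*, a regulator of the sodium pump, had 6.85, 6.93 and 17.8 FPKM in BM-MSCs, 109, 74.2 and 72.6 in steady-state P-SSCs and 9.49, 10.4 and 11.6 in graft P-SSCs. *Cyp2f2*, a cytochrome P450, had 0, 2.28 and 0 FPKM in BM-MSCs, 61.8, 9.58 and 29.5 in steady-state P-SSCs and 0.476, 1.84 and 1.56 in graft P-SSCs. *Zfp423*, a transcription factor of preadipocytes, had 7.98, 1.31 and 15.5 FPKM in BM-MSCs, 35.8, 27.1 and 47.8 in steady-state P-SSCs and 10.7, 9.29 and 8.36 in graft P-SSCs, and left the set without P-SSC replicate 3. *Pmp22*, a membrane protein of Schwann cells and fibroblasts, had 502, 362 and 354 FPKM in BM-MSCs, 886, 817 and 1023 in steady-state P-SSCs and 211, 220.3 and 217 in graft P-SSCs, so that every graft library was below every marrow library. Of the other Schwann cell markers in the table, *Mbp*, of myelin, had 9.33, 1.93 and 19.5 FPKM in BM-MSCs, 7.79, 27.8 and 108 in steady-state P-SSCs and 2.83, 2.59 and 2.79 in graft P-SSCs, and *Sox10*, which was not tested, had 0.0968, 0 and 0 FPKM in BM-MSCs, 0.524, 1.2 and 8.43 in steady-state P-SSCs and 0.432, 0.179 and 0.304 in graft P-SSCs. Both were highest in P-SSC replicate 3, and the part of Schwann cells in the *Pmp22* values was not tested. *Cyb5a* was likewise below the marrow in every graft library, with 369.8, 344 and 264 FPKM in BM-MSCs, 652, 679 and 403 in steady-state P-SSCs and 160.4, 177 and 171 in graft P-SSCs. *Cdkn1a*, the cell cycle inhibitor p21, had 70.3, 89.9 and 105 FPKM in BM-MSCs, 342, 249 and 176 in steady-state P-SSCs and 90.4, 75.3 and 84.8 in graft P-SSCs, with graft and marrow libraries overlapping and every steady-state library above them.

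Further genes left a shared level. Genes whose steady-state mean was within 1 log2 unit of BM-MSCs and not called, and which limma called in the graft against both other groups, with at least 10 FPKM in the higher one, numbered 173 upward and 63 downward. These counts were 236 and 73 without P-SSC replicate 3, with 141 and 52 shared. With median-of-ratios scaling they were 105 and 102, so the excess of upward genes depended on the scaling. *Nos2*, the inducible nitric oxide synthase of inflammation, was listed at 0 in all 6 day 0 libraries and had 49.4, 52.7 and 61.9 FPKM in the graft, on chromosome 11 from 78920787 to 78960254, on the plus strand. *Crabp1*, a retinoic acid binding protein, had 4.13, 1.52 and 1.23 FPKM in BM-MSCs, 0.252, 4.0 and 4.0 in steady-state P-SSCs and 43.6, 53.5 and 54.8 in graft P-SSCs (log2 fold change 4.07, SE 0.55, limma adjusted p = 0.000324). *Lrrc32*, a receptor that holds latent TGF-beta at the cell surface, had 1.46, 1.11 and 0 FPKM in BM-MSCs, 5.8, 7.55 and 18.8 in steady-state P-SSCs and 74.9, 51.5 and 63.9 in graft P-SSCs and, being over 1 log2 unit above the marrow at steady state, was outside the set.

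*Hnrnpab*, an RNA binding protein, had 4.21, 2.85 and 4.55 FPKM in BM-MSCs, 1.83, 1.07 and 80.3 in steady-state P-SSCs and 197, 198 and 76.2 in graft P-SSCs. *Tomm40*, the pore of mitochondrial protein import, had 3.71, 5.81 and 5.17 FPKM in BM-MSCs, 2.57, 2.1 and 48.7 in steady-state P-SSCs and 112, 124 and 126 in graft P-SSCs. *Tnfaip3*, an inhibitor of NF-kB that NF-kB itself induces, had 4.07, 0.651 and 2.33 FPKM in BM-MSCs, 0.838, 0.75 and 11.1 in steady-state P-SSCs and 52.8, 55.9 and 39.8 in graft P-SSCs. *Ptx3*, a secreted pentraxin of innate immunity, had 7.95, 3.34 and 5.4 FPKM in BM-MSCs, 1.41, 2.7 and 18.8 in steady-state P-SSCs and 161, 155 and 38.3 in graft P-SSCs. *Gpr180* and *Noc2l* had 119, 109 and 101 and 51.3, 51.3 and 31.6 FPKM in the graft against at most 4.45 and 1.65 in BM-MSCs. In all 6 genes P-SSC replicate 3 was the highest steady-state library, with 4.89, 1.05 and 44.6 and 0.705, 0.483 and 16 FPKM for the last 2. *Actg2*, a smooth muscle actin, had 1.88, 0 and 0 FPKM in BM-MSCs, 0.832, 5.0 and 0 in steady-state P-SSCs and 30.4, 28.7 and 34.8 in graft P-SSCs. *Ptx3*, *Tomm40* and *Actg2* no longer met the rule without P-SSC replicate 3, while each graft library was still above each BM-MSC library.

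**Figure D4:**
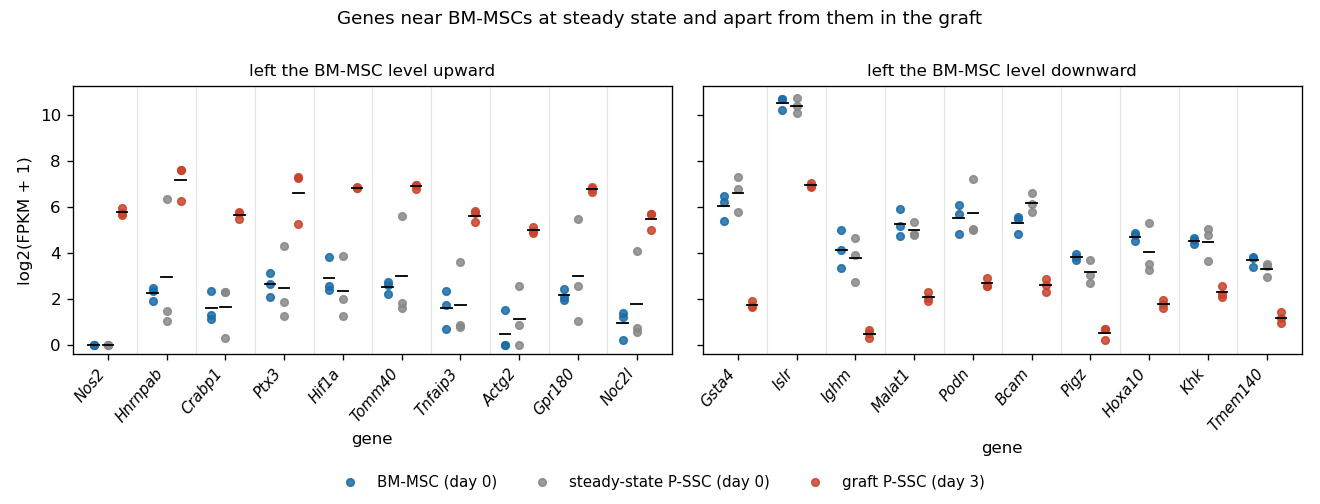
Log2(FPKM + 1) in each library (points) with group means (bars) for the 10 leading genes that left the BM-MSC level upward and the 10 that left it downward after transplantation. Red graft points lie apart from the blue marrow points in all 20 genes, and the grey point of P-SSC replicate 3 lies nearest to the graft in several.

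Downward, *Islr*, a stromal gene of the immunoglobulin superfamily, had 1689, 1671 and 1212 FPKM in BM-MSCs, 1346, 1709 and 1098 in steady-state P-SSCs and 122, 132 and 118 in graft P-SSCs, a fall of all graft libraries below both day 0 groups (log2 fold change -3.59, SE 0.19, limma adjusted p = 9.02e-07). *Malat1*, a nuclear noncoding RNA, had 59.2, 25.8 and 35.8 FPKM in BM-MSCs, 39.96, 28 and 26.9 in steady-state P-SSCs and 2.76, 3.14 and 4.0 in graft P-SSCs (log2 fold change -3.19, SE 0.32, limma adjusted p = 4.91e-05). *Gsta4*, a glutathione transferase for products of lipid peroxidation, had 89.7, 74.2 and 41.2 FPKM in BM-MSCs, 160.4, 111 and 54.4 in steady-state P-SSCs and 2.76, 2.29 and 2.14 in graft P-SSCs (log2 fold change -4.29, SE 0.40, limma adjusted p = 3e-05). *Podn* and *Bcam*, a matrix proteoglycan and a laminin receptor, had 4.95, 4.92 and 6.61 and 3.93, 5.15 and 6.37 FPKM in the graft against 68.4, 28 and 50.8 and 43.8, 47 and 27.5 in BM-MSCs. Against BM-MSCs *Khk*, *Pigz* and *Tmem140* fell by 2.24, 3.28 and 2.48 on the log2 scale, with no overlap. *Hoxa10*, a limb patterning gene, had 28.5, 26.5 and 22.1 FPKM in BM-MSCs, 10.6, 8.8 and 38.8 in steady-state P-SSCs and 2.08, 2.86 and 2.44 in graft P-SSCs (log2 fold change -2.95, SE 0.47, limma adjusted p = 0.000936), and was the 1 gene called of 5 tested Hox and limb genes, beside 44.7% of all genes. *Ighm*, the heavy chain of immunoglobulin M, had 9.21, 16.6 and 31.1 FPKM in BM-MSCs, 24.6, 14.4 and 5.71 in steady-state P-SSCs and 0.567, 0.235 and 0.454 in graft P-SSCs, and the lymphoid markers in the table summed to 13 to 39 FPKM in BM-MSCs and 0.364 to 0.724 in graft P-SSCs. Their part in this difference was not tested. *Gsta4*, *Bcam* and *Hoxa10* no longer met the rule without P-SSC replicate 3.

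Of the 11 tested G2/M phase genes, 10 were called higher and none lower in graft P-SSCs than in BM-MSCs, beside 27.8% of all genes called higher, with a median log2 fold change of 2.15. All 11 were above 0 under each scaling, where 9 were called. At steady state 8 of the 11 were called lower than in the marrow, beside 15.5% of all genes. In every gene of this list each graft library was above each marrow library.

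*Cdc20*, an activator of the anaphase-promoting complex, had 31.7, 14.9 and 62.4 FPKM in BM-MSCs, 0.541, 3.66 and 0.306 in steady-state P-SSCs and 264, 256 and 271 in graft P-SSCs (log2 fold change 3.04, SE 0.55, limma adjusted p = 0.0019). *Hmmr*, a spindle protein and hyaluronan receptor, had 3.61, 1.31 and 11.7 FPKM in BM-MSCs, 0, 0 and 0 in steady-state P-SSCs and 27, 30.04 and 29.2 in graft P-SSCs (log2 fold change 2.53, SE 0.53, limma adjusted p = 0.00407). *Cdca8*, a subunit of the chromosomal passenger complex, had 14.3, 8.53 and 34.9 FPKM in BM-MSCs, 0, 3.03 and 0 in steady-state P-SSCs and 69.3, 75.4 and 72.9 in graft P-SSCs, and its graft excess of 2.08 was not called in 7 of the 18 other settings (limma adjusted p up to 0.176), among them fits without BM-MSC replicate 1, BM-MSC replicate 2, graft P-SSC replicate 1, graft P-SSC replicate 2 and graft P-SSC replicate 3. BM-MSC replicate 3 was the highest marrow library of all 3 genes. *Ckap2* and *Dlgap5*, spindle proteins, were above BM-MSCs by 2.88 and 2.72 on the log2 scale, and *Nek2*, a centrosomal kinase, by 3.30. *Ctcf*, on the list as a gene of this phase and otherwise known as the chromatin insulator protein, was the 1 member not called (log2 fold change 1.19, SE 0.60, limma adjusted p = 0.133), with 8.22, 4.84 and 6.11 FPKM in BM-MSCs and 21.3, 18.6 and 9.38 in graft P-SSCs. It was called without P-SSC replicate 3 (limma adjusted p = 0.015) and in a fit of the BM-MSC and graft libraries alone (limma adjusted p = 0.0172).

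*Plk1*, a kinase of mitotic entry outside the list, had 14.7, 20.2 and 48.7 FPKM in BM-MSCs, 0.0434, 0 and 0 in steady-state P-SSCs and 146, 153 and 151 in graft P-SSCs (log2 fold change 2.57, SE 0.38, limma adjusted p = 0.00052). *Foxm1*, the transcription factor that drives G2/M genes, had 2.58, 2.92 and 3.31 FPKM in BM-MSCs, 0.407, 0.151 and 0.0353 in steady-state P-SSCs and 41.2, 37.5 and 31.9 in graft P-SSCs (log2 fold change 3.26, SE 0.28, limma adjusted p = 1.68e-05). For both, the order periosteum, marrow, graft held in every library. Of the 5 tested S phase genes 3 were called higher and none lower, beside 27.8% of all genes called higher, and 2 under either quantile normalization or median-of-ratios scaling. *Mcm6*, a subunit of the replicative helicase, had 23.3, 26.5 and 78.1 FPKM in BM-MSCs, 5.93, 7.41 and 14.7 in steady-state P-SSCs and 132, 140.2 and 139.8 in graft P-SSCs (log2 fold change 1.88, SE 0.45, limma adjusted p = 0.00788). *Mcm5*, another subunit, had 26.1, 48.7 and 110.5 FPKM in BM-MSCs, 5.12, 11.4 and 4.77 in steady-state P-SSCs and 122, 133 and 146 in graft P-SSCs, and its graft excess of 1.34 was not called in 11 of the 18 other settings (limma adjusted p up to 0.139), among them fits without BM-MSC replicate 1, BM-MSC replicate 2, P-SSC replicate 1, graft P-SSC replicate 1, graft P-SSC replicate 2 and graft P-SSC replicate 3. *Cdc45*, which joins that helicase, had 1.3, 2.36 and 16.8 FPKM in BM-MSCs, 3.46, 6.79 and 3.77 in steady-state P-SSCs and 31.3, 35.3 and 35.6 in graft P-SSCs. Of the 7 tested G1 regulators, *Cdk4* (269.7, 241 and 304 FPKM in BM-MSCs and 423, 441 and 471 in graft P-SSCs) and *Cdkn2c*, an inhibitor of CDK4 (11.1, 7.22 and 9.96 FPKM in BM-MSCs and 19.5, 21.2 and 16.4 in graft P-SSCs), were called higher. *E2f2*, a transcription factor of the entry into S phase, had 1.72, 1.44 and 3.06 FPKM in BM-MSCs and 0.788, 0.527 and 0.496 in graft P-SSCs. Under 1 FPKM in every graft library, it passed the filter only through BM-MSCs, which fixed its direction. It stays in the count as the 1 lower gene. The 2 higher genes and 1 lower gene lie, as shares, near the 27.8% and 16.9% of all genes. *E2f2* dropped out of the count in 9 of the 18 other settings, among them the fits without BM-MSC replicate 1 or 3 or any 1 graft library. With median-of-ratios scaling *Cdk4* was not called (limma adjusted p = 0.0844). For *Cdkn2c* the call was lost with quantile normalization (limma adjusted p = 0.102) and in the fits without BM-MSC replicate 2, graft P-SSC replicate 1 or graft P-SSC replicate 2, where limma adjusted p = 0.0555, 0.0719 and 0.0847.

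**Figure D5:**
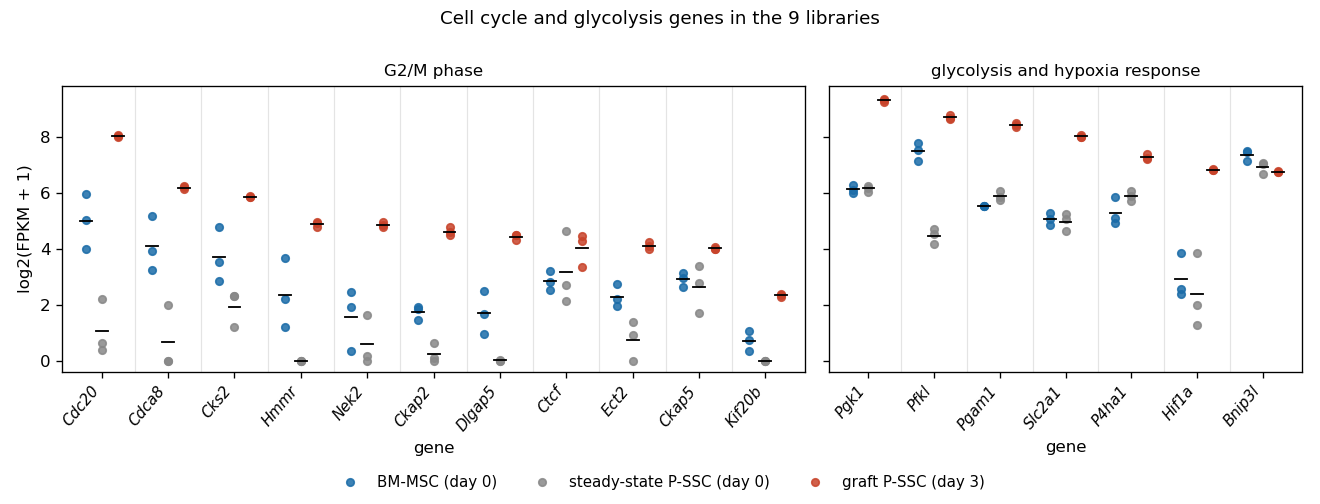
Log2(FPKM + 1) in each library (points) with group means (bars) for the 11 tested G2/M phase genes and the 7 tested genes of glycolysis and the hypoxia response, in order of graft level. Red graft points are above blue marrow points in all G2/M genes, grey steady-state points are below the marrow in most, and *Bnip3l* is the 1 glycolysis and hypoxia gene with graft values below the marrow.

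Promoters of genes that moved together are shown to let their shared letters be seen. The windows are the 250 bases before the annotated start, from RefSeq on GRCm38.p6, written 5′ to 3′ on the strand of the gene. Of the 11 tested G2/M genes 10 had such a window, 8 held CCAAT on either strand and 5 held TTTGAA on either strand, the core of the cell cycle genes homology region. Of all 32851 windows searched, 33.8% held the first and 16% the second, and of the windows of tested genes 35.5% and 9.92%. A gene counted when any of its windows held the motif, while these shares are of single windows, so counts and shares are unlike measures. The windows of *Cdc20* (chr4:118437344-118437593, minus strand) and *Hmmr* (chr11:40733438-40733687, minus strand) follow, with every match of either motif in capitals, read as its reverse complement where it lies on the other strand. The *Cdc20* window holds both motifs, and the *Hmmr* window holds CCAAT alone, as ATTGG. A match is a description of the letters and not of binding.
Cdc20: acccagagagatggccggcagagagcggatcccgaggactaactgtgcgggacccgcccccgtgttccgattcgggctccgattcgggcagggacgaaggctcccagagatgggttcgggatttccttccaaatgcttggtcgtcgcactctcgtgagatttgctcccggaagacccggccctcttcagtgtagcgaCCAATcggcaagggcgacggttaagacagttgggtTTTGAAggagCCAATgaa
Hmmr: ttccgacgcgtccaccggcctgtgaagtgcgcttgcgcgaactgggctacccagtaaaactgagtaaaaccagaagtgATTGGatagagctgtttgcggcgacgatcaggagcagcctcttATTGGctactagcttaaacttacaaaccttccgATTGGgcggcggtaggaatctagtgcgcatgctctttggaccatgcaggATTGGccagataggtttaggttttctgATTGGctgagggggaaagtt

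Of the 7 tested genes of glycolysis and the hypoxia response, 6 were called higher and 1 lower than in BM-MSCs, beside 27.8% and 16.9% of all genes, with a median of 2.90. Steady-state P-SSCs had none higher and 1 lower, beside 8.56% and 15.5% of all genes. *Slc2a1*, the glucose transporter GLUT1, had 38.6, 32.4 and 27.8 FPKM in BM-MSCs, 36.8, 32.7 and 24.1 in steady-state P-SSCs and 257, 256 and 274 in graft P-SSCs (log2 fold change 2.97, SE 0.19, limma adjusted p = 3.57e-06). *Pgk1*, phosphoglycerate kinase, on chromosome X from 106187100 to 106203699, on the plus strand, had 63.8, 69.2 and 78.2 FPKM in BM-MSCs, 72.6, 75.7 and 65.5 in steady-state P-SSCs and 611, 661 and 652 in graft P-SSCs (log2 fold change 3.17, SE 0.14, limma adjusted p = 2.05e-07). *Pgam1*, the next enzyme of the pathway, had 46.1, 45.4 and 45.3 FPKM in BM-MSCs, 57.4, 66.1 and 53.8 in steady-state P-SSCs and 330.03, 364 and 346 in graft P-SSCs. The day 0 groups overlapped or lay close to each other in all 3 genes, and the graft libraries stood severalfold above both.

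*Hif1a*, the oxygen-regulated transcription factor, had 13.5, 4.94 and 4.3 FPKM in BM-MSCs, 1.41, 3.04 and 13.6 in steady-state P-SSCs and 113, 116 and 113 in graft P-SSCs (log2 fold change 3.90, SE 0.61, limma adjusted p = 0.000804). Its steady-state difference from BM-MSCs was called without P-SSC replicate 3 (-1.30, limma adjusted p = 0.0371, against -0.56 and 0.575 with all libraries). *Pfkl*, the liver form of phosphofructokinase, instead crossed the marrow, with 186, 221 and 142 FPKM in BM-MSCs, 22.3, 25.1 and 17.3 in steady-state P-SSCs and 403, 444 and 415 in graft P-SSCs (log2 fold change 1.22, SE 0.20, limma adjusted p = 0.000991). *P4ha1*, which hydroxylates collagen and is induced by hypoxia, had 33.3, 29.2 and 57 FPKM in BM-MSCs, 58.5, 52.4 and 66.2 in steady-state P-SSCs and 149.8, 169.5 and 154 in graft P-SSCs. *Bnip3l*, a mitophagy receptor, was the gene called lower with 176, 139.9 and 182 FPKM in BM-MSCs and 108, 109.7 and 106 in graft P-SSCs (log2 fold change -0.60, SE 0.16, limma adjusted p = 0.0139), a call lost when libraries were scaled to equal FPKM sums (limma adjusted p = 0.0594). *Txnip*, which restrains glucose uptake, had 298, 116 and 146 FPKM in BM-MSCs, 487, 268 and 621 in steady-state P-SSCs and 31.1, 40.4 and 43.8 in graft P-SSCs and moved against the list (log2 fold change -2.14, SE 0.38, limma adjusted p = 0.00173).

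The core of the hypoxia response element is ACGTG or GCGTG on either strand. It was in a promoter window of all 6 list genes that had one. Of all windows 38.6% held it, and of those of tested genes 54.3%. Here too a gene counted when any of its windows held the core, and the shares are of single windows. The *Pgk1* window (chrX:106186850-106187099, plus strand) is shown as the gene with the highest graft level on the list, with the core in capitals.
Pgk1: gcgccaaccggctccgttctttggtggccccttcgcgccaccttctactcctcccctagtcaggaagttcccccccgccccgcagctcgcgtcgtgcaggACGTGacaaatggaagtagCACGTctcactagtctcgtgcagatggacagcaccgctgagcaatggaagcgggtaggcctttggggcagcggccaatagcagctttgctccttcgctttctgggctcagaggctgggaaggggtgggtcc

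Of 13 tested genes of oxidative phosphorylation, 6 were called lower and 1 higher, beside 16.9% and 27.8% of all genes, with a median of -0.48 against 0.29 for all genes. With equal FPKM sums 3 were called lower, a share near that of all genes. Without BM-MSC replicate 2 the lower genes also numbered 3. *Cox4i2*, a cytochrome oxidase isoform, had 39.6, 64.7 and 32.8 FPKM in BM-MSCs, 6.03, 18.2 and 6.63 in steady-state P-SSCs and 5.27, 7.9 and 9.08 in graft P-SSCs (log2 fold change -2.44, SE 0.42, limma adjusted p = 0.00146), low already at steady state. *Ndufa3* and *Ndufa1*, subunits of complex I, had 186, 182 and 209.97 and 151, 144 and 178 FPKM in the graft against 369.7, 434 and 393 and 289, 306 and 297 in BM-MSCs. *mt-Nd2*, a complex I subunit of the mitochondrial genome, had 73.1, 45.8 and 48 FPKM in BM-MSCs, 55.9, 52.9 and 48.2 in steady-state P-SSCs and 9.86, 13.8 and 11.2 in graft P-SSCs (log2 fold change -2.15, SE 0.23, limma adjusted p = 6.72e-05). Ribosomal protein genes had a median of 0.63 against 0.29 for all genes, and 7 of 16 were called higher and none lower, beside 27.8% and 16.9%. The higher genes became 2 with median-of-ratios scaling and 12 with quantile normalization or without P-SSC replicate 3. *Rpl5* had 141, 153 and 186 FPKM in BM-MSCs, 165, 193 and 102 in steady-state P-SSCs and 413, 441 and 467 in graft P-SSCs and *Rpl15* had 176, 227 and 248 FPKM in BM-MSCs, 221, 301 and 186 in steady-state P-SSCs and 421, 473 and 489 in graft P-SSCs. Of 6 tested chaperone and secretory genes 4 were higher, beside 27.8% of all genes, among them *Cct2*, a subunit of the cytosolic chaperonin, with 102, 85.2 and 122 FPKM in BM-MSCs, 94.2, 90.5 and 109.9 in steady-state P-SSCs and 252, 264 and 262 in graft P-SSCs (log2 fold change 1.34, SE 0.16, limma adjusted p = 0.000156), and *Derl1*, of protein export from the endoplasmic reticulum, with 76.2, 56.1 and 69.4 FPKM in BM-MSCs, 57.6, 57.3 and 107 in steady-state P-SSCs and 135, 138 and 132 in graft P-SSCs.

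Cytokine genes stood on both sides of the marrow. Of 13 tested, 7 were called higher and 3 lower in graft P-SSCs than in BM-MSCs, beside 27.8% and 16.9% of all genes. The counts at steady state were also 7 and 3, beside 8.56% and 15.5%, and in both comparisons the lower genes were near the share of all genes. *Cxcl1*, a neutrophil chemokine, had 2.98, 3.16 and 3.92 FPKM in BM-MSCs, 209, 137 and 60.8 in steady-state P-SSCs and 379.8, 337 and 321 in graft P-SSCs (log2 fold change 6.32, SE 0.37, limma adjusted p = 1.64e-06). *Cxcl2*, its neighbour on chromosome 5 with the same receptor, had 0.436, 0.0392 and 1.13 FPKM in BM-MSCs, 3.39, 2.53 and 2.02 in steady-state P-SSCs and 34.8, 30.1 and 20.9 in graft P-SSCs (log2 fold change 4.30, SE 0.36, limma adjusted p = 1.6e-05). *Il6*, the cytokine of the acute-phase response, had 0.604, 0.792 and 2.02 FPKM in BM-MSCs, 92.8, 60.02 and 20.3 in steady-state P-SSCs and 55.3, 62.5 and 52 in graft P-SSCs, and its graft values lay inside the steady-state range and above all marrow libraries (log2 fold change 4.80, SE 0.49, limma adjusted p = 5.52e-05). *Lif*, of the same cytokine family, had 0.324, 0 and 0 FPKM in BM-MSCs, 2.07, 1.65 and 2.92 in steady-state P-SSCs and 10.4, 7.52 and 8.05 in graft P-SSCs. *Il13ra1*, a receptor chain for interleukins 4 and 13, had 2.17, 2.38 and 1.93 FPKM in BM-MSCs, 24, 13 and 33 in steady-state P-SSCs and 56.4, 58.5 and 53 in graft P-SSCs (log2 fold change 4.17, SE 0.31, limma adjusted p = 7.54e-06). The 3 genes called lower were *Ackr4*, *Il1rn* and *Il15*. *Il15*, which maintains natural killer cells, had 74, 39.3 and 56.4 FPKM in BM-MSCs, 10.4, 4.66 and 4.78 in steady-state P-SSCs and 1.96, 2.69 and 2.9 in graft P-SSCs (log2 fold change -4.00, SE 0.36, limma adjusted p = 2.28e-05).

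An NF-kB site of the form GGGA, then any base, then TTTCC, was searched on either strand. It was in 0.356% of all windows and 0.451% of those of tested genes, which are shares of single windows. Counting a gene when any of its windows held it, 3 of the 12 tested cytokine genes with a window did, *Cxcl1*, *Cxcl2* and *Il6*. Their windows are shown because all 3 genes were far above BM-MSCs in the graft, at chr5:90890995-90891244, chr5:90903649-90903898 and chr5:30012864-30013113 on the plus strand, with the site in capitals.
Cxcl1: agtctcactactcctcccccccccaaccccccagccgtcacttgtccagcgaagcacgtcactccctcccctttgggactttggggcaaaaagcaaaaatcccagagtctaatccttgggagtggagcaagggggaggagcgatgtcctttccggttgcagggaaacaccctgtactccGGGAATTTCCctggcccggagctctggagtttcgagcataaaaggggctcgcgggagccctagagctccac
Cxcl2: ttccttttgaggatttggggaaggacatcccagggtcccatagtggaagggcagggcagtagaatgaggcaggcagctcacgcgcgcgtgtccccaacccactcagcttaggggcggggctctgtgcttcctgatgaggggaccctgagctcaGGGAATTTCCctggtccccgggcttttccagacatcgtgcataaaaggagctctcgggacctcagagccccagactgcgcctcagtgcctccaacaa
Il6: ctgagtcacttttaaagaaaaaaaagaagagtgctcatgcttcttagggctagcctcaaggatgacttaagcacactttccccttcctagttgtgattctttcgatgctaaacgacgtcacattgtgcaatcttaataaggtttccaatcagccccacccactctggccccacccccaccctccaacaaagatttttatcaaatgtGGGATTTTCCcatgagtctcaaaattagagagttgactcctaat

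Acute-phase and complement genes were lower in graft P-SSCs for 9 of 14 tested genes and higher for 3, beside 16.9% and 27.8% of all genes, with a median of -2.45. Besides *Trf*, *Serping1*, *Serpina3f* and *Il1rn*, *Orm1*, an acute-phase glycoprotein, had 9.4, 13 and 11 FPKM in BM-MSCs and was listed at 0 in all graft libraries. *C5ar1*, the receptor for complement C5a and a gene of myeloid cells, had 9.51, 11.3 and 12.2 FPKM in BM-MSCs, 0, 0 and 0 in steady-state P-SSCs and 1.67, 1.68 and 1.67 in graft P-SSCs. The 3 higher genes were *Ptx3*, *F3* and *Saa3*. *F3*, tissue factor, had 4.23, 5.88 and 3.87 FPKM in BM-MSCs, 68.6, 67.1 and 213 in steady-state P-SSCs and 92.5, 79.9 and 79.4 in graft P-SSCs (log2 fold change 3.92, SE 0.40, limma adjusted p = 5.55e-05). *Saa3*, a serum amyloid made at sites of inflammation, had 11.2, 39.3 and 12.8 FPKM in BM-MSCs, 0, 1.51 and 0 in steady-state P-SSCs and 83.4, 138 and 95 in graft P-SSCs (log2 fold change 2.46, SE 0.52, limma adjusted p = 0.00436), a call lost with a pseudocount of 0.1 (limma adjusted p = 0.0717). The granulocyte and monocyte marker sums given above were higher in BM-MSCs than in either periosteal group, and their part in the 9 lower genes was not tested.

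Interferon and MHC class I genes gave 3 higher and 4 lower of 14, beside 27.8% and 16.9% of all genes, and these small counts set nothing apart. *Oas1a*, an antiviral sensor whose fragments may be shared with near-identical copies, had 7.32, 10.9 and 8.26 FPKM in BM-MSCs, 12.5, 5.14 and 2.62 in steady-state P-SSCs and 52.6, 42.9 and 34.6 in graft P-SSCs. *Psmb10*, an immunoproteasome subunit, had 329, 497 and 344 FPKM in BM-MSCs, 199.995, 235 and 84 in steady-state P-SSCs and 91.8, 86.1 and 87.5 in graft P-SSCs (log2 fold change -2.10, SE 0.34, limma adjusted p = 0.000982). Of 9 tested immediate early and stress genes 7 were higher and 1 lower, beside 27.8% and 16.9% of all genes, with a median of 2.17. *Egr1*, a transcription factor induced by growth factors and by cell handling, had 13, 14.3 and 18.6 FPKM in BM-MSCs, 54, 37.3 and 514 in steady-state P-SSCs and 315, 340.4 and 276 in graft P-SSCs, with P-SSC replicate 3 above every graft library (log2 fold change 4.26, SE 0.78, limma adjusted p = 0.00195). *Atf3*, of the stress response, had 10.7, 18.1 and 28.6 FPKM in BM-MSCs, 577, 611 and 271 in steady-state P-SSCs and 90.1, 90.8 and 88.8 in graft P-SSCs, so its steady-state libraries were above the graft ones. *Ddit3*, of the unfolded protein response, was the gene called lower, with 50.7, 39.96 and 46.7 FPKM in BM-MSCs, 38.3, 28.9 and 39.1 in steady-state P-SSCs and 13, 20.7 and 20.9 in graft P-SSCs.

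Cytoskeletal genes were higher in graft P-SSCs for 9 of 10 tested genes and lower for none, beside 27.8% and 16.9% of all genes, with a median of 2.67. At steady state 5 of the 10 were higher and 2 lower, beside 8.56% and 15.5%. *Vim*, the intermediate filament vimentin, had 457, 438 and 449 FPKM in BM-MSCs, 1667, 1823 and 1499 in steady-state P-SSCs and 3051, 3104 and 3239.7 in graft P-SSCs (log2 fold change 2.80, SE 0.13, limma adjusted p = 2.85e-07). *Anxa2*, a membrane and actin binding annexin, had 791, 791 and 585 FPKM in BM-MSCs, 3346, 3565 and 2305 in steady-state P-SSCs and 5273, 5762 and 5404 in graft P-SSCs (log2 fold change 2.93, SE 0.20, limma adjusted p = 4.04e-06). *Flnc*, a filamin, had 0.0186, 1.02 and 0.696 FPKM in BM-MSCs, 20.7, 17 and 28.7 in steady-state P-SSCs and 34.7, 29.4 and 39.9 in graft P-SSCs. *S100a4*, a calcium binding protein of motile fibroblasts, had 0.71, 0.382 and 0.263 FPKM in BM-MSCs, 5.95, 4.46 and 5.68 in steady-state P-SSCs and 12.6, 12.3 and 14 in graft P-SSCs. The order marrow, steady-state periosteum, graft held for *Vim*, *Anxa2*, *Flnc* and *S100a4*, without overlap between any 2 groups.

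All 3 collagen and collagen processing genes tested were higher, beside 27.8% of all genes, *Col6a3*, a chain of collagen VI, with 21.5, 19.98 and 17.2 FPKM in BM-MSCs, 143, 114 and 83.2 in steady-state P-SSCs and 193, 163 and 239 in graft P-SSCs (log2 fold change 3.27, SE 0.23, limma adjusted p = 4.5e-06), besides *P4ha1* and *Tram2*. Of 7 matrix proteases and inhibitors 3 were higher and 2 lower, and of 5 adhesion genes 1 and 1, counts too small to read against the 27.8% and 16.9% of all genes. *Adamts4*, an aggrecanase, had 7.03, 7.24 and 7.29 FPKM in BM-MSCs, 15.1, 20.3 and 5.79 in steady-state P-SSCs and 46.2, 37.1 and 41.2 in graft P-SSCs (log2 fold change 2.37, SE 0.38, limma adjusted p = 0.000873). *Plau*, the urokinase activator of plasminogen, was listed at 0 in all BM-MSC libraries and had 14.7, 18.1 and 7.74 FPKM at steady state and 2.81, 3.3 and 4.01 in the graft. *Cst3*, the protease inhibitor cystatin C, was lower with 11693, 13748 and 10768 FPKM in BM-MSCs, 4149.6, 3552 and 3019 in steady-state P-SSCs and 568, 589 and 619 in graft P-SSCs (log2 fold change -4.34, SE 0.16, limma adjusted p = 1.11e-07), as was *Serpine2*. *Cadm3*, an adhesion molecule, had 0.246, 0.0441 and 0 FPKM in BM-MSCs, 9.92, 24.1 and 17.1 in steady-state P-SSCs and 1.97, 2.06 and 1.8 in graft P-SSCs. *Itgb2*, the leukocyte integrin chain, had 9.15, 12.5 and 22.8 FPKM in BM-MSCs, 0, 2.13 and 0 in steady-state P-SSCs and 2.14, 2.53 and 2.54 in graft P-SSCs, a call lost with a pseudocount of 0.1 (limma adjusted p = 0.0974).

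Of 7 adipocyte genes 2 were higher and 1 lower than in BM-MSCs, again near the 27.8% and 16.9% of all genes. *Fabp5*, a fatty acid binding protein, had 10.7, 8.96 and 8.93 FPKM in BM-MSCs, 1.85, 3.23 and 1.35 in steady-state P-SSCs and 61.9, 50.6 and 69.3 in graft P-SSCs (log2 fold change 2.54, SE 0.28, limma adjusted p = 8.94e-05), and *Angptl4*, an inhibitor of *Lpl*, had 380.4, 312 and 364 FPKM in BM-MSCs, 41.2, 45.9 and 139 in steady-state P-SSCs and 763, 854 and 894 in graft P-SSCs. The graft excess of *Angptl4*, 1.25, was not called in 7 of the 18 other settings (limma adjusted p up to 0.0827), among them fits without BM-MSC replicate 1, BM-MSC replicate 2, BM-MSC replicate 3, graft P-SSC replicate 1, graft P-SSC replicate 2 and graft P-SSC replicate 3. Of the 4 tested osteoblast genes 2 were lower and none higher, beside 16.9% and 27.8% of all genes. *Dlx6*, a homeobox factor among the lower ones, had 3.71, 2.14 and 3.85 FPKM in BM-MSCs, 0.237, 0.738 and 0.887 in steady-state P-SSCs and 0.106, 0.176 and 0.0521 in graft P-SSCs. Of the 2 chondrocyte genes only *Cilp* was called.

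Of 24 signalling genes 7 were called higher and 5 lower, near the shares of all genes called (27.8% and 16.9%), so the list as a whole did not stand out by its counts. Leaving out 1 library gave 5 to 11 higher. The 11 were without P-SSC replicate 3, where 657 of all genes tested were called higher. *Hbegf*, a ligand of the EGF receptor, had 1.17, 0.112 and 0.346 FPKM in BM-MSCs, 11.8, 11.5 and 3.57 in steady-state P-SSCs and 24.4, 24.6 and 25 in graft P-SSCs (log2 fold change 4.11, SE 0.44, limma adjusted p = 7.69e-05). *Fzd2*, a Wnt receptor, had 0.307, 0.363 and 0.015 FPKM in BM-MSCs, 1.35, 2.01 and 12.3 in steady-state P-SSCs and 26.4, 17.8 and 8.59 in graft P-SSCs, with the 3 graft libraries far from each other. *Id3*, a target of BMP signals that blocks differentiation factors, had 1763, 2006 and 1688 FPKM in BM-MSCs, 1679, 2230.5 and 936 in steady-state P-SSCs and 437, 482 and 537 in graft P-SSCs (log2 fold change -1.91, SE 0.27, limma adjusted p = 0.000461). *Notch3*, a receptor of mural cells, had 7.62, 7.13 and 8.01 FPKM in BM-MSCs, 0.642, 1.39 and 1.91 in steady-state P-SSCs and 1.01, 0.898 and 2.08 in graft P-SSCs (log2 fold change -1.91, SE 0.32, limma adjusted p = 0.00111), with the periosteal groups overlapping. *Cyr61*, a matricellular protein, had 460.1, 467 and 588 FPKM in BM-MSCs and 658, 667 and 653 in graft P-SSCs, no overlap and no call (log2 fold change 0.39, SE 0.16, limma adjusted p = 0.0721). It was called in 3 of the 18 other settings, without BM-MSC replicate 3, without P-SSC replicate 3 and with BM-MSC and graft libraries alone (limma adjusted p = 0.0399, 0.0374 and 0.0249). Of 10 glutathione and antioxidant genes 5 were higher and 3 lower, beside 27.8% and 16.9% of all genes. With median-of-ratios scaling 3 were higher, near that share. Without BM-MSC replicate 2 the higher genes also numbered 3. *Gpx3*, the secreted glutathione peroxidase and one of the highest marrow transcripts, had 15742, 22733 and 17856 FPKM in BM-MSCs, 5708, 3407 and 4778 in steady-state P-SSCs and 1895, 1753 and 1926 in graft P-SSCs (log2 fold change -3.32, SE 0.22, limma adjusted p = 3.57e-06). *Hmox1*, the haem oxygenase, had 92.9, 58.5 and 66.3 FPKM in BM-MSCs, 49.8, 54.5 and 41.4 in steady-state P-SSCs and 211, 199.8 and 249 in graft P-SSCs (log2 fold change 1.61, SE 0.20, limma adjusted p = 0.000194). *Gsto1*, a glutathione transferase, had 32.4, 30.9 and 43.2 FPKM in BM-MSCs, 24.6, 22 and 21.5 in steady-state P-SSCs and 87.6, 95.9 and 111 in graft P-SSCs (log2 fold change 1.45, SE 0.19, limma adjusted p = 0.000224).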

How the data were processed

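RNA of sorted cells was sequenced in 9 libraries, 3 per group, and groups and replicate numbers were taken from the labels' titles. The authors mapped reads to GRCm38 with STAR 2.6.1d and used DESeq2 for their own tests. The submitters' processing notes also name CASAVA, fastp and featureCounts 1.5.0-p3, with no role given. The deposited values are FPKM made by the authors, and no further scaling between libraries is stated. The annotation release and the use of strand are not given in the sources used here, so antisense and overlapping genes may share fragments. FPKM times length gave whole fragments (within 0.02) for 99.8% of 4837 values above 0 of genes with 1 annotated transcript, which gave the library totals. Counts of other genes were not recovered, so no count test was run, and counting error is covered only by the spread between libraries.

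Values were changed to log2(FPKM + 1) and fitted with limma 3.58.1 (R 4.3.3, trend) over all 9 libraries. P-values were adjusted over the 1823 genes tested. An exact permutation test of 3 libraries against 3 cannot go below p = 0.10, so single genes were not tested that way. Replicates held distinct mice.

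The comparison, the gene lists and the tests were chosen with earlier results of these data known. Named genes were the 5 markers *Ackr3*, *Cav1*, *Ackr4*, *Trf* and *Postn*, the 10 largest called changes each way with at least 10 FPKM and no overlap, for each list up to 3 largest changes and 2 highest means, and the 10 leading genes of each group of approaching, distant and departing genes. The remaining named genes, such as *Plk1*, *Foxm1*, *Txnip*, *Tnxb*, *Gpnmb*, *Saa3*, *E2f2* and further members of a list, were chosen after their values were seen. Some genes that the rule names are not reported here. Kinases of ribosomal protein S6 and a ribosomal binding protein were removed from the ribosomal list after the files were read, as they are no ribosomal proteins. The procedures were tested on simulated data. Alternatives changed the pseudocount, filter, scaling, libraries in the fit, replicate block and trend, and left out each library. Promoters are from RefSeq (GRCm38.p6), and 1365 of the tested genes had a window.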

Additional observations from a re-analysis of the deposited data

Results flagged for a closer look

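Genes whose difference from BM-MSCs had opposite signs in steady-state and graft P-SSCs, both called, and whose change between the periosteal groups was itself called by limma, are given here with the difference of the 2 changes on the log2 scale (graft minus steady-state P-SSC). Both differences use the same BM-MSC libraries. No test for outliers was run, because each group had 3 libraries, though P-SSC replicate 3 was set apart on its correlations with the other libraries.

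The values for genes of cell division were 7.22 for *Plk1*, 6.97 for *Cdc20*, 5.97 for *Racgap1*, 5.53 for *Cdca8*, 4.99 for *Foxm1*, 4.89 for *Hmmr*, 4.43 for *Dlgap5*, 4.39 for *Ckap2*, 4.15 for *Mcm5*, 3.94 for *Cks2*, 3.83 for *Mcm6*, 3.37 for *Stmn1*, 3.36 for *Ect2*, 2.34 for *Kif20b* and 1.81 for *Cdkn2c*. Among genes of inflammation and metabolism they were 6.26 for *Saa3*, 4.33 for *Fabp5*, 4.24 for *Pfkl*, 3.68 for *Angptl4*, 2.67 for *Idh2* and 2.06 for *Gsto1*. They were negative for *Txnip* (-3.47), *Pmp22* (-2.06) and *Cyb5a* (-1.73). Without P-SSC replicate 3 the steady-state difference from BM-MSCs was no longer called for *Txnip* (limma adjusted p = 0.0575), *Gsto1* (0.0541) and *Kif20b* (0.0737). *Hmmr* and *Kif20b* were listed at 0 in every steady-state library, so their values depend on the pseudocount of 1 and are no fold. The same holds for *Plk1* and *Foxm1*, which were under 1 FPKM in every steady-state library. *Cdc20*, *Cdca8* and *Saa3* were under 1 FPKM in every steady-state library but P-SSC replicate 2. Their values, and those of other genes low at steady state, depend in part on the pseudocount. With a pseudocount of 0.1 the graft excess of *Ect2* over BM-MSCs was not called (limma adjusted p = 0.103). That of *Idh2* was not called in 7 of the 18 other settings (limma adjusted p up to 0.082), among them fits without BM-MSC replicate 2, BM-MSC replicate 3, graft P-SSC replicate 1, graft P-SSC replicate 2 and graft P-SSC replicate 3. That of *Stmn1* was not called in 13 of the 18 other settings (limma adjusted p up to 0.168), among them fits without BM-MSC replicate 1, BM-MSC replicate 2, P-SSC replicate 1, P-SSC replicate 2, graft P-SSC replicate 1, graft P-SSC replicate 2 and graft P-SSC replicate 3.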

How the results depend on the processing

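The count of genes called in graft P-SSCs against BM-MSCs was 743 with a pseudocount of 0.1, 745 with median-of-ratios scaling, 755 with equal FPKM sums and 1050 in a fit of those 6 libraries alone. Deviations from the group means had correlations of 0.0539, -0.0337 and -0.00264 between same-numbered BM-MSC and graft libraries. These values showed no pairing by number but, with 3 libraries per group, cannot exclude it. With the replicate block 778 genes were called. Leaving out 1 library gave 565 to 1019 genes, 326 to 657 higher and 238 to 362 lower. For steady-state P-SSCs against BM-MSCs the ranges were 363 to 552 genes, 127 to 179 higher and 231 to 380 lower, and between the periosteal groups 423 to 855, 301 to 637 and 120 to 218. The same settings gave 25 to 62 genes that rose and 14 to 40 that fell to the marrow level, 13 to 16 and 32 to 37 far above and below it, and 104 to 236 and 43 to 73 that left it upward and downward. Genes far above numbered 37 with a pseudocount of 0.1. Those that rose to the marrow level numbered 25 with equal FPKM sums. With median-of-ratios scaling 42 fell to it, and 105 left upward and 102 downward. With quantile normalization 49 fell to it, 112 left downward, and 345 genes were called lower after transplantation than in the steady-state periosteum.

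Of the 144 named genes followed, 115 kept their direction and call in all 18 settings. Calls were gained by *Ecm1* and *Serpinf1* with quantile normalization, *Poldip2* in the fit of 6 libraries and without P-SSC replicate 3, *Soat1* without BM-MSC replicate 2 and *Wisp1* without BM-MSC replicate 3. Signs turned only in genes not called against BM-MSCs. With median-of-ratios scaling the log2 fold change was -0.25 for *C1qtnf1*, -0.11 for *Fxyd6*, -0.20 for *Hacd2* and -0.055 for *Serpinf1*. With quantile normalization it was -0.33 for *C1qtnf1*, -0.30 for *Fxyd6* and -0.29 for *Hacd2*, and with equal FPKM sums -0.0041 for *C1qtnf1*. Leaving out 1 library gave -0.15 to 0.29 for *C1qtnf1*, -0.091 to 0.54 for *Fxyd6*, -0.35 to 0.11 for *Sdc1*, -0.092 to 0.22 for *Hacd2*, -0.30 to 0.046 for *C3*, -0.22 to 1.19 for *Zfp423* and -0.22 to 0.065 for *Cdkn1a*. The causes were not tested.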
